A study of Mus musculus with 12 samples.

Results

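The genes described here are the proteasome genes of mouse, taken as every row of the deposited count table whose symbol begins with Psm, then a letter from a to g, then a digit, and whose mean raw count over the 12 libraries was at least 10. Of 24985 genes in the table, 50 matched by symbol and 48 passed the count minimum. All 48 were among the 14742 genes tested. Psma8 and Psmb11, which encode the core subunits of testis and thymus, had mean counts of 4.00 and 4.50 and were left out, whereas the members nearest to the minimum were Psmb9 with 27.9 counts and Psmc3ip with 34.8. Psmc3ip matches the symbols but encodes a protein that binds a proteasome ATPase and acts in meiotic recombination, so it was kept apart from the subunits.

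The libraries came from dorsal hippocampus of wild-type C57Bl6/J mice, 3 mice in each of 4 groups. At 6 months of age each mouse received PBS or 1 µg of AD tau, the detergent-insoluble tau purified from human Alzheimer's disease cortex, which seeds aggregation of the mouse's own tau. For the next 6 months the mice ate either a control chow or a chow with 5% sodium acetate. Tissue was taken from the injected side, after all mice had been through fear conditioning and a remote recall test, and the study describes the sequenced animals as representative of their groups. All mice were wild-type and the tau was injected on one side, so any tau pathology starts from injected human material.

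The proteasome is the protease that degrades ubiquitin-tagged proteins in the cytosol and nucleus. Its core particle is a barrel of alpha and beta rings with the proteolytic sites on beta subunits inside, and its regulatory particle has an ATPase base that unfolds substrates and a lid that removes ubiquitin. Interferon exchanges the catalytic subunits for immune forms (Psmb8, Psmb9 and Psmb10) that cut peptides for MHC class I, and alternative caps such as the Psme activators can replace the regulatory particle. In neurons the proteasome also turns over synaptic proteins, and tau is one of its substrates.

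Total counts were 12983233 to 20218340 per library. Marker genes of CA1, CA3 and dentate granule neurons were all detected. The labels call the mice male, but Xist, an RNA made from the inactive X chromosome, had 920 to 1340 CPM (normalized counts, scaled to a common library total) in 12 of 12 libraries and 8 Y-linked genes had 0 counts in all of them, which goes against that label. No pair of libraries in a group was a duplicate. Several cell type marker sums moved with the groups. The 5 CA1 markers summed to 452 to 589 CPM in PBS mice on control diet and 718 to 946 CPM in PBS mice on acetate, while the 6 CA3 markers summed to 1528 to 1748 and 1098 to 1401 CPM. The 6 oligodendrocyte markers summed to 6869 to 8859 CPM in the first of these groups, 4311 to 5933 in the second, 4556 to 5510 in tau mice on control diet and 5196 to 8353 in tau mice on acetate. Microglial markers summed to 373 to 422 CPM in 11 mice and to 458 CPM in tau acetate mouse 1, and choroid plexus markers reached 476 CPM in tau acetate mouse 3 against 64.8 to 201 CPM elsewhere. Of 5 blood genes, 4 were listed at 0 in every library. The part of these shifts in the results was not tested. In bulk tissue, fewer cells of a type and less RNA per cell cannot be told apart.

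The proteasome genes were evenly expressed across mice. Their summed level was 2908 to 3254 CPM per mouse, or 0.292 to 0.322% of counted reads. The median coefficient of variation within groups was 6.02% for the 48 members and 8.53% for all tested genes, with a median level of 67.2 CPM for members and 23.4 CPM for all genes. Levels of different genes were compared per length, as CPM per kb of annotated exon.

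**Figure D1:**
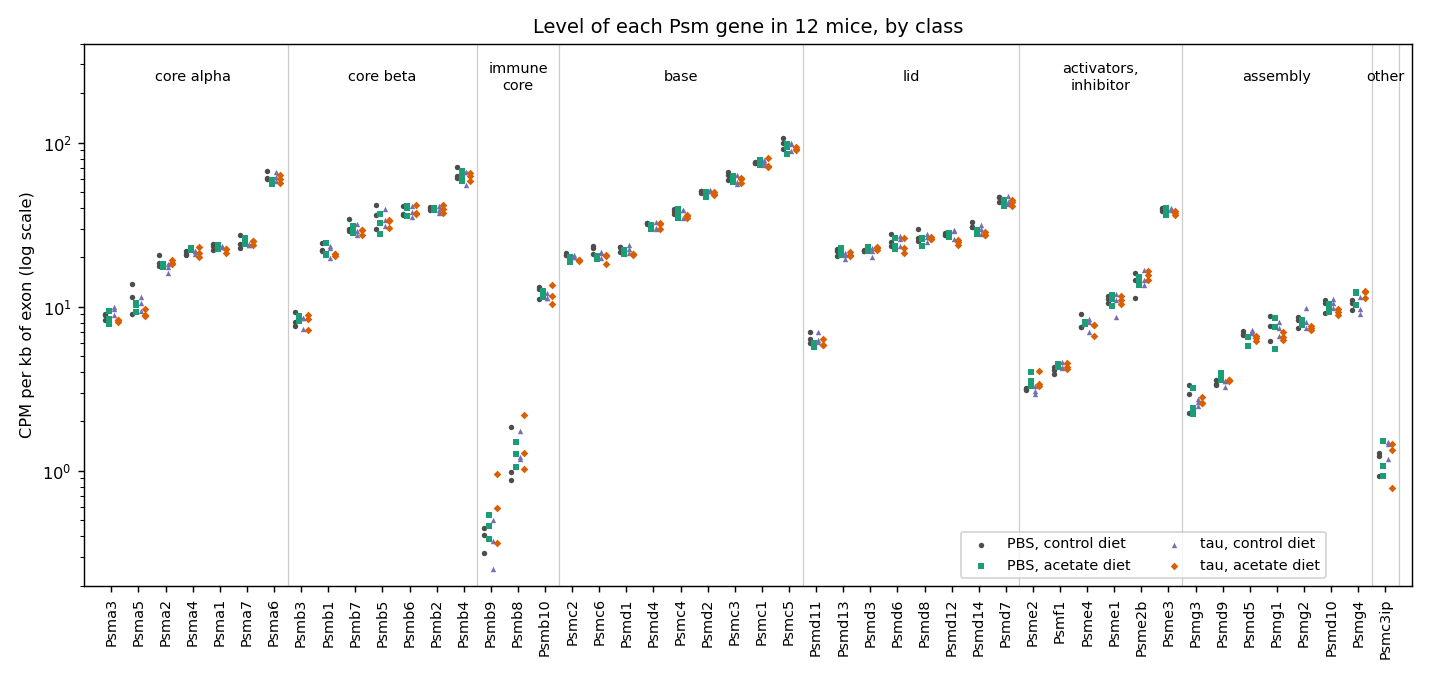
Level of each of the 48 Psm genes in the 12 mice, as CPM per kb of exon on a log axis, grouped by class and ordered by mean within a class, with 1 point per mouse coloured by group. Psmc5 stood highest at a mean of 94.98 and Psmb9 lowest at 0.466, and the 4 groups overlapped for most genes.

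Genes of the regulatory particle base had the highest median level per kb of annotated exon. The 9 base genes had a median of 37.2 CPM per kb, from 19.9 for the ATPase Psmc2 to 94.98 for the ATPase Psmc5. The 7 beta genes of the core had a median of 33.9 CPM per kb, from 8.32 for Psmb3 to 62.9 for Psmb4, and the 7 alpha genes a median of 21.7, from 8.78 for Psma3 to 60.9 for Psma6. The 8 lid genes had a median of 25.4 CPM per kb, from 6.21 for the scaffold subunit Psmd11 to 44.2 for Psmd7. Subunits of the assembled particle occur in equal numbers, and their transcript levels per length spanned 6.93-fold within the alpha ring and 7.57-fold within the beta ring.

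Assembly factors and caps were lower. The 7 assembly genes, which encode chaperones of the alpha ring (Psmg1 to Psmg4) and of the base (Psmd5, Psmd9 and Psmd10), had a median of 7.19 CPM per kb, from 2.68 for Psmg3 to 11.01 for Psmg4. In the class of 6 genes that holds the activators and the inhibitor, Psme3, the nuclear activator, had 38.4 CPM per kb. The interferon-responsive pair Psme1 and Psme2 had 10.9 and 3.36, the large activator Psme4 had 7.80 and the inhibitor Psmf1 had 4.31. Psmc3ip had 1.22 CPM per kb. These levels use the union of all annotated exons, and with the longest transcript instead the median over the 48 members was 34.8 in place of 21.5 CPM per kb. The order also depends on the length used. Per longest transcript the base and beta medians were nearly equal, and Psmb4 rather than Psmc5 was the highest member.

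The immune subunits were minor forms in this tissue. Of the 3, Psmb10 was the most abundant with a mean of 12.0 ± 0.905 CPM per kb (SD, n = 12), Psmb8 had 1.35 ± 0.400 and Psmb9 had 0.466 ± 0.182. Their constitutive counterparts Psmb7, Psmb5 and Psmb6 had 29.6 ± 1.99, 33.9 ± 4.08 and 38.5 ± 2.51. Over the 3 catalytic pairs together the immune genes made up 10.7 to 14.4% of the level per length in a mouse, most of it Psmb10.

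Some members share sequence with other loci, which bears on how exactly reads can be assigned. Of the 48 members, 24 had no stretch of 50 bases in their longest transcript that occurs in another annotated gene, 16 shared up to 20% of such stretches and 8 shared more. Psmb5 shared 57.1%, most with the processed pseudogene Gm3375, and Psma5 shared 55.4%, most with Gm8394. Their within-group coefficients of variation were 13.1% each, and their values are uncertain because reads of such stretches may have been split or dropped in counting. Reads counted on Psme2 and Psme2b are likewise uncertain. Psme2b is an expressed single-exon copy of Psme2 at chr11:48945354-48946190 (GRCm38, minus strand), whereas Psme2 lies at chr14:55587441-55591113 (minus strand). Their coding sequences are both 717 bases long and 99.3% identical, with 5 differing bases and an identical run of 311 bases. Positions 484 to 543 of both coding sequences, counted from the start codon, are shown because they hold 3 of the 5 differences, which are set in capitals:
Psme2: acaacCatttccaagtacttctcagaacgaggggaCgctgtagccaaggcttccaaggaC
Psme2b: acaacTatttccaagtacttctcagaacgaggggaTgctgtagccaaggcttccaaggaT
Psme2 had 5.19 to 7.19 CPM and Psme2b had 9.50 to 14.1 CPM over the 12 mice.

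Genes of the proteasome are known to be raised together by Nfe2l1 through antioxidant response elements when the protease is inhibited, and the immune subunits by interferon through other elements. RefSeq promoter windows (GRCm38.p6), from 250 bases before to 50 bases after the start, were found for 41 of the 48 members. The core of the antioxidant element, TGACNNNGC on either strand, occurred in a window of 6 of these 41 members (14.6%), beside 14.0% of all genes with a window. It was found for Psmb5, Psmb6, Psmc6, Psmd9, Psmd12 and Psme4. The following upstream stretches, written on the strand of the gene, hold it in capitals and are shown because Psmc6 and Psmd12 had the smallest p-values among core and regulatory particle genes in the diet comparisons and Psmb5 encodes the main catalytic subunit. They lie at chr14:54618009-54618067 (minus strand), chr14:45329574-45329630 (plus strand) and chr11:107479278-107479314 (plus strand):
Psmb5: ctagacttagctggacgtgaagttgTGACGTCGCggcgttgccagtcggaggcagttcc
Psmc6: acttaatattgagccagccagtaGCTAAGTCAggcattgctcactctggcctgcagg
Psmd12: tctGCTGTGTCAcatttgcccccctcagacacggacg
The core of the interferon-stimulated element was read as GAAA, 2 bases of any kind and GAAA again on either strand. It occurred in a window of 5 of the 41 members (12.2%, Psmb3, Psmd4, Psmd9, Psme1 and Psmg4), beside 3.99% of all genes with a window. Psmb8, Psmb9, Psmb10 and Psme2 also had windows, and none of these held the interferon-stimulated core. A match is a description of the letters and not a measured binding site.

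Tau injection on the control diet, the comparison that asks what seeding did by itself, was accompanied by no detectable change of a proteasome gene. None of the 48 members passed an adjusted p of 0.1, where 0.0136% of all tested genes did (2 genes). At an unadjusted p below 0.05 the member count was also 0, beside 9.65% of all genes. DESeq2 on all 12 mice called 0 members, beside 100 of 14742 genes, or 0.785% of those to which it gave an adjusted p. The median log2 fold change was -0.03 over the members and -0.00086 over all genes. Of the 48, 33 were lower and 15 higher (49.7% of all genes were higher). However, the median turned to 0.0088 once each library's trend with transcript length and GC content was removed. It was also 0.010 without PBS control mouse 3 and 0.010 without tau control mouse 3, so no direction is given to the family. The 95% intervals of 45 of the 48 lay within 0.5 of 0 on the log2 scale.

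The largest estimates in this comparison were 0.26 for Psmc3ip (95% interval -0.33 to 0.84, adjusted p = 0.834) and, among subunits, -0.13 for Psma5 (95% interval -0.40 to 0.14, adjusted p = 0.810). Psma2, an alpha-ring subunit, had the smallest p: its levels were 67.8, 65.2 and 75.6 CPM in PBS mice and 67.2, 64.7 and 58.8 CPM in tau mice. The groups overlapped, with a log2 fold change of -0.13 ± 0.066 (SE, adjusted p = 0.565). Psmd2, a large scaffold subunit of the base, was the only member whose groups did not overlap (1 of 48, higher), beside 13.5% of all genes in either direction and 6.61% higher: 199 to 204 CPM in PBS mice and 205 to 210 CPM in tau mice, with a log2 fold change of 0.03 (adjusted p = 0.897). The ATPases Psmc6 and Psmc3 had log2 fold changes of -0.11 and -0.10 (adjusted p = 0.643 and 0.650).

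**Figure D2:**
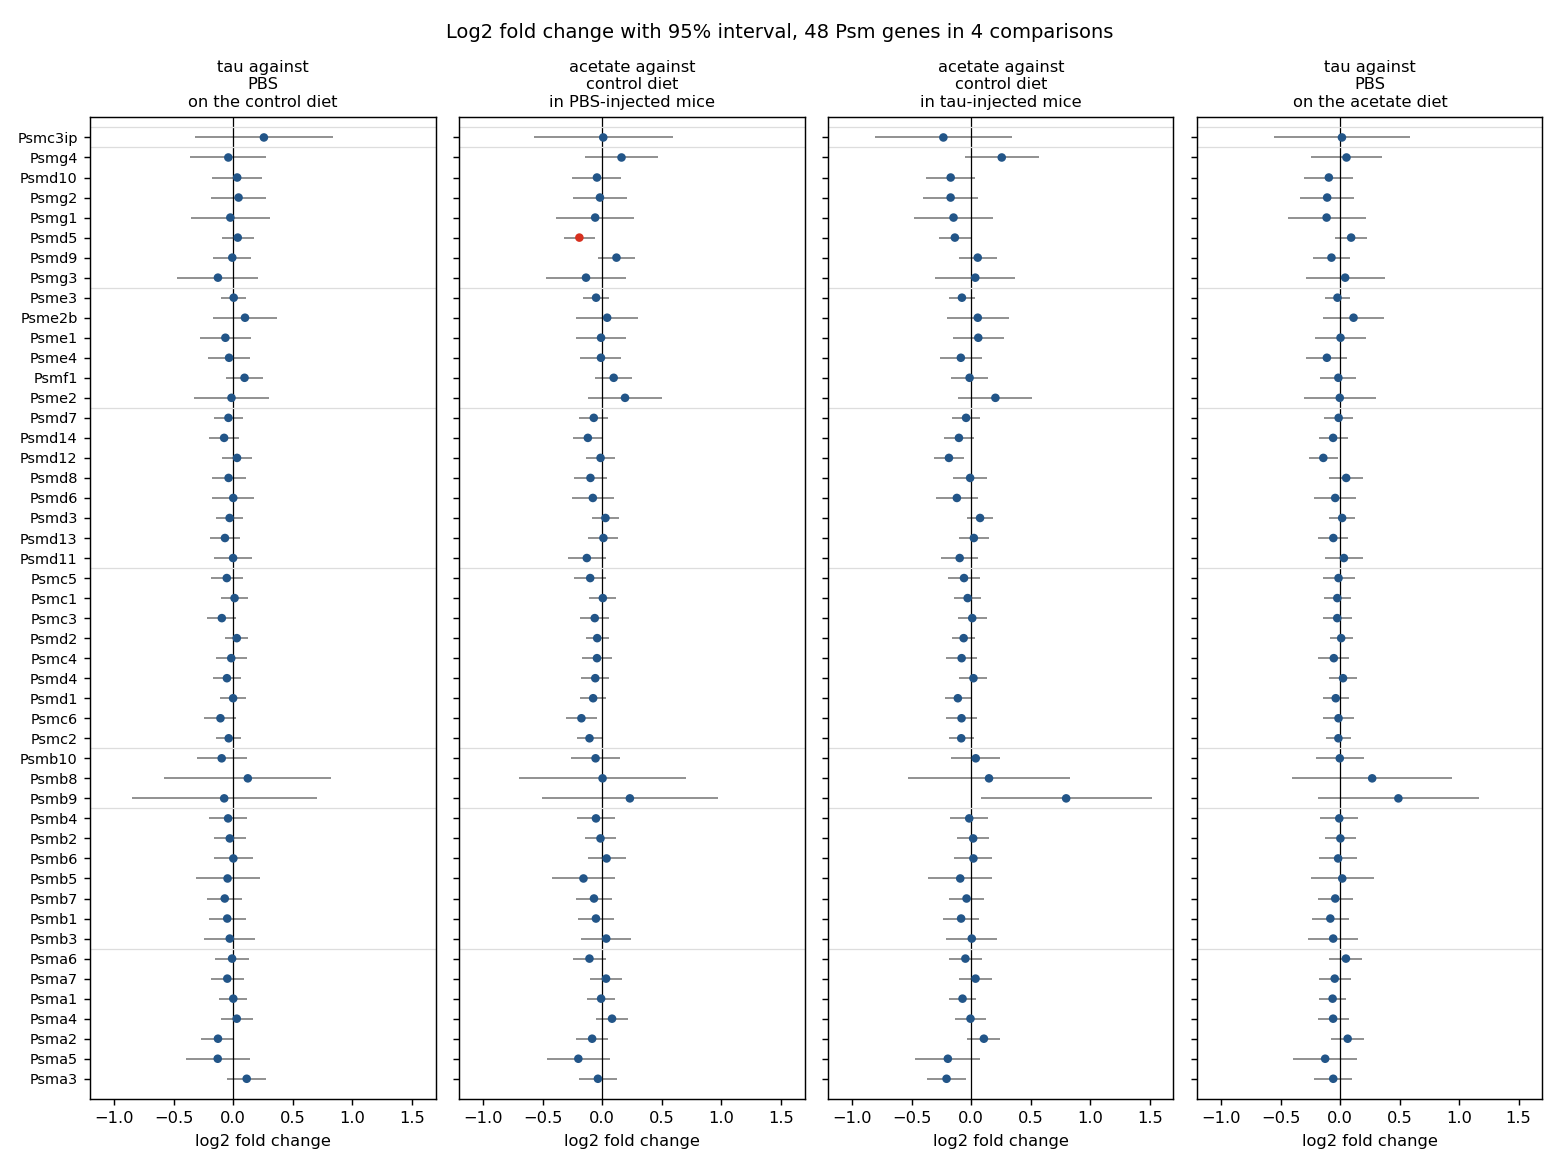
Log2 fold change (point) with its 95% interval (line) for each of the 48 Psm genes in the 4 comparisons between groups, ordered by class as in the plot of levels; red marks an adjusted p below 0.1. Only Psmd5 in the diet comparison of PBS mice is red, and the widest intervals are those of the low genes Psmb8, Psmb9 and Psmc3ip.

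The acetate diet in PBS-injected mice gave 1 call among the proteasome genes, Psmd5, which fell. Of the 5 comparisons this one had the most calls over all genes: 8.84% of all tested genes passed, 4.85% lower, beside 1 of 48 members (2.08%). Psmd5 (chr2:34849734-34874968, minus strand) encodes an assembly chaperone that holds ATPases of the base before they join the core and is not part of the finished particle. It had 49.3, 48.7 and 51.3 CPM in PBS mice on control diet and 41.8, 41.9 and 47.0 CPM in PBS mice on acetate. Every acetate mouse lay below every control mouse. The log2 fold change was -0.19 ± 0.064 (SE), with a 95% interval of -0.33 to -0.06 and an adjusted p of 0.0920. The call was close to the threshold and depended on the fit: it was lost in 9 of 12 fits that left out 1 mouse and with DESeq2 (adjusted p = 0.106), and it stayed with mice paired by replicate number within the PBS groups (adjusted p = 0.0704) but not when the length and GC trend was removed from that paired fit (adjusted p = 0.109). CA1 markers were higher and CA3 and oligodendrocyte markers lower in the same acetate mice, as given above, and their part in the Psmd5 difference was not tested.

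In tau-injected mice Psmd5 had 51.1, 50.2 and 51.9 CPM on control diet and 44.9, 46.8 and 47.7 CPM on acetate. The groups again did not overlap. This difference did not pass (log2 fold change -0.14 ± 0.064, adjusted p = 0.439), and the diet differences after PBS and after tau were not distinguishable (difference of 0.05, 95% interval -0.13 to 0.24). The ATPase gene Psmc2, whose product is bound by the Psmd5 protein during assembly, was the other member lower without overlap under acetate after both injections. This pattern was shown by 2 of 48 members and by 2.27% of all genes. Psmc2 levels were 104, 105 and 107 CPM in PBS control mice and 96.5, 94.5 and 101 CPM in PBS acetate mice. After tau they were 101, 105 and 101 CPM on control diet and 96.8, 97.0 and 95.3 CPM on acetate. The log2 fold changes were -0.11 and -0.08 (adjusted p = 0.223 and 0.570).

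No other member passed with acetate in PBS mice. At an unadjusted p below 0.05 there were 3 members with Psmd5 included (Psmd5, Psmc6 and Psmc2), or 6.25% beside 20.8% of all genes. All 3 were lower, beside 10.8% of all genes. Psmc6, another base ATPase, had 73.6, 80.1 and 82.2 CPM on control diet and 69.4, 71.3 and 68.1 CPM on acetate. The groups did not overlap (log2 fold change -0.17 ± 0.064, adjusted p = 0.122). Groups did not overlap for 9 members, 6 lower and 3 higher, beside 26.3% of all genes, of which 13.2% lower and 13.1% higher. The higher ones were Psma4, Psme2 and Psmf1, with log2 fold changes of 0.08, 0.19 and 0.10 (adjusted p = 0.487, 0.491 and 0.486). The lid deubiquitinase Psmd14 was at -0.12 (adjusted p = 0.247).

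**Figure D3:**
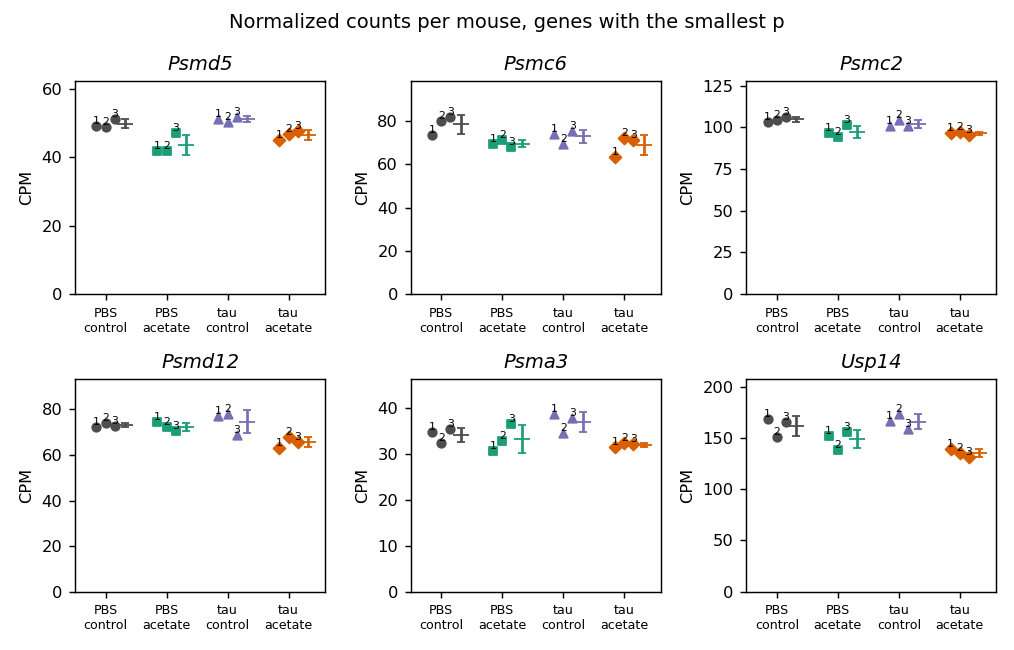
Normalized level (CPM, axis from 0) of Psmd5, Psmc6, Psmc2, Psmd12, Psma3 and the proteasome-bound deubiquitinase Usp14 in each mouse, with the replicate number beside each point and the group mean with SD (n = 3) at its right. Psmd5 lies at 41.8 to 47.0 CPM in PBS mice on acetate and at 48.7 to 51.3 CPM on control diet.

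The acetate diet in tau-injected mice gave no call among the members, beside 0.0611% of all genes (9 genes). DESeq2 on all 12 mice also called 0, beside 167 of 14742 genes, or 1.55% of those to which it gave an adjusted p. At an unadjusted p below 0.05 there were 5 of 48 (10.4%), beside 10.9% of all genes: Psmd12, Psma3, Psmd5 and Psmd1 lower and Psmb9 higher. Of all genes, 5.41% were lower and 5.47% higher at that p. Psmd12, a scaffold subunit of the lid, had 77.2, 77.9 and 68.8 CPM in tau mice on control diet and 63.2, 67.9 and 65.8 CPM in tau mice on acetate. The groups did not overlap, with a log2 fold change of -0.19 ± 0.059 and an adjusted p of 0.276. In PBS mice the same gene was at 72.2, 74.2 and 72.8 CPM on control diet and 74.3, 72.1 and 70.7 CPM on acetate. The interaction for Psmd12, which sets one diet difference against the other, was -0.17 (95% interval -0.35 to 0.0019, adjusted p = 0.391).

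Psma3, an alpha-ring subunit, had 38.7, 34.6 and 37.8 CPM in tau mice on control diet and 31.6, 32.4 and 32.2 CPM on acetate. These groups did not overlap either (log2 fold change -0.21 ± 0.077, adjusted p = 0.335). Psma3 shares 22.02% of its 50-base stretches with the pseudogene Gm13835. In all, groups did not overlap for 10 members, 9 lower and 1 higher (Psmd9), beside 14.4% of all genes, 7.77% lower and 6.66% higher. The median log2 fold change was -0.04 in tau mice, from -0.07 without tau acetate mouse 2 to -0.0079 without tau control mouse 1, and -0.04 in PBS mice, and the largest departure of a core, base or lid gene was 1.15-fold in either.

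Between tau and PBS mice on the acetate diet no member passed, beside 0.136% of all genes (20 genes). DESeq2 on all 12 mice called 0 members, beside 0.882% of all genes. At an unadjusted p below 0.05 there was 1, Psmd12, beside 10.3% of all genes in either direction and 4.83% lower, with a log2 fold change of -0.14 ± 0.059 (adjusted p = 0.419). Its levels on acetate, given above, did not overlap between tau and PBS mice. Of the 48, 5 did not overlap, 4 lower and 1 higher, beside 16.2% of all genes, 8.71% lower and 7.51% higher. The median log2 fold change of the 48 was -0.02. Psma2 was the one higher in tau mice (log2 fold change 0.06, adjusted p = 0.800), and Psmd12, Psmd9, Psme4 and Psmg2 were lower.

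The interaction, which tests whether the diet difference was the same after tau as after PBS, passed for no member, beside 1.56% of all genes (230 genes). At an unadjusted p below 0.05 the member count was 0 as well, beside 13% of all genes. DESeq2 on all 12 mice called 0 members, beside 3.2% of all genes. The count of 230 over all genes rested on single mice, since it was 8 without PBS acetate mouse 2, 22 without tau acetate mouse 1 and 442 without tau acetate mouse 3. The smallest p-values were those of Psmd12 and Psma2. For Psma2 the estimate was 0.19 (95% interval -0.0028 to 0.39, adjusted p = 0.394). No member had diet groups that stood apart in opposite directions after PBS and after tau, beside 1.17% of all genes (173 genes). The member count was also 0 for tau against PBS groups on the 2 diets, beside 1.59% of all genes.

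The size of change that these data leave room for was small for the constitutive particle. Among the 31 genes of the alpha and beta rings, base and lid, 24 were lower and 7 higher with tau on the control diet, 24 and 7 with acetate in PBS mice, 22 and 9 with acetate in tau mice, and 22 and 9 with tau on the acetate diet. Over all tested genes the share higher in these comparisons was 49.7, 50.9, 50.3 and 48.8%. With tau on the control diet the median of all 48 members changed sign between fits, as given above. With tau on the acetate diet it was 0.0029 without PBS acetate mouse 3. The medians of the 9 base genes were -0.04, -0.06, -0.06 and -0.01 on the log2 scale and those of the 8 lid genes -0.04, -0.075, -0.07 and -0.03. The widest 95% interval in these 4 comparisons reached a log2 value of 0.468 (1.38-fold), for Psma5 with acetate in tau mice. The comparisons share groups of mice, so their counts are not independent of each other.

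The genes of the proteolytic sites and of the lid enzyme were among those without a call. Psmb5, which encodes the chymotrypsin-like subunit, had 32.8, 26.6 and 37.4 CPM in PBS control mice and 29.2, 24.96 and 33.1 CPM in PBS acetate mice. In tau mice it had 30.4, 35.4 and 27.9 CPM on control diet and 30.1, 30.6 and 27.3 CPM on acetate. All groups overlapped, and the log2 fold change with acetate in PBS mice was -0.16 (95% interval -0.42 to 0.11), or -0.27 without PBS control mouse 2 and -0.04 without PBS control mouse 3. Psmb6, the caspase-like subunit, lay at 65.6 to 78.4 CPM over the 12 mice, with log2 fold changes of -0.02 to 0.04 in the 4 comparisons. Psmb7, the trypsin-like subunit, lay at 93.6 to 117 CPM with log2 fold changes of -0.07 to -0.04. Psmd14 lay at 77.0 to 92.8 CPM with log2 fold changes of -0.12 to -0.06, and the scaffold Psmd11 had its largest, -0.13, with acetate in PBS mice (adjusted p = 0.343).

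Caps and assembly chaperones other than Psmd5 showed no call either. Psme3 lay at 107 to 118 CPM with log2 fold changes of -0.08 to 0.0035, and its intervals stayed within 0.19 of 0. Psme4 lay at 55.7 to 75.4 CPM, and its largest log2 fold change was -0.11, with tau on the acetate diet (adjusted p = 0.682). The inhibitor Psmf1 lay at 25.1 to 29.8 CPM. The alpha-ring chaperone Psmg4, at 5.04 to 6.96 CPM, had the largest estimate of the class, 0.26 with acetate in tau mice (95% interval -0.05 to 0.57, adjusted p = 0.557). Psmg3, with which it pairs, was at 0.03 in that comparison (adjusted p = 0.963), and Psmg2, the partner of Psmg1, was at -0.17 (adjusted p = 0.597).

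Several single mice were the highest or lowest of the 12 for many constitutive genes. PBS control mouse 3 was the highest of the 12 for 18 of the 31, with a median log2 deviation from the gene's mean of 0.10. Tau acetate mouse 1 was the lowest for 10 (median -0.07), tau control mouse 3 for 9 (-0.06) and PBS acetate mouse 2 for 8 (-0.07). The spread of these medians within groups was as wide as the differences between groups. The shares of all tested genes that were highest or lowest in these mice were not computed. Without PBS control mouse 3 the median log2 fold change of the 48 with acetate in PBS mice was -0.01 in place of -0.04, and it was -0.07 without PBS control mouse 2. Over all genes, the count passing in that comparison was 1303, and it was 248 without PBS control mouse 3 and 15 without PBS acetate mouse 2.

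**Figure D4:**
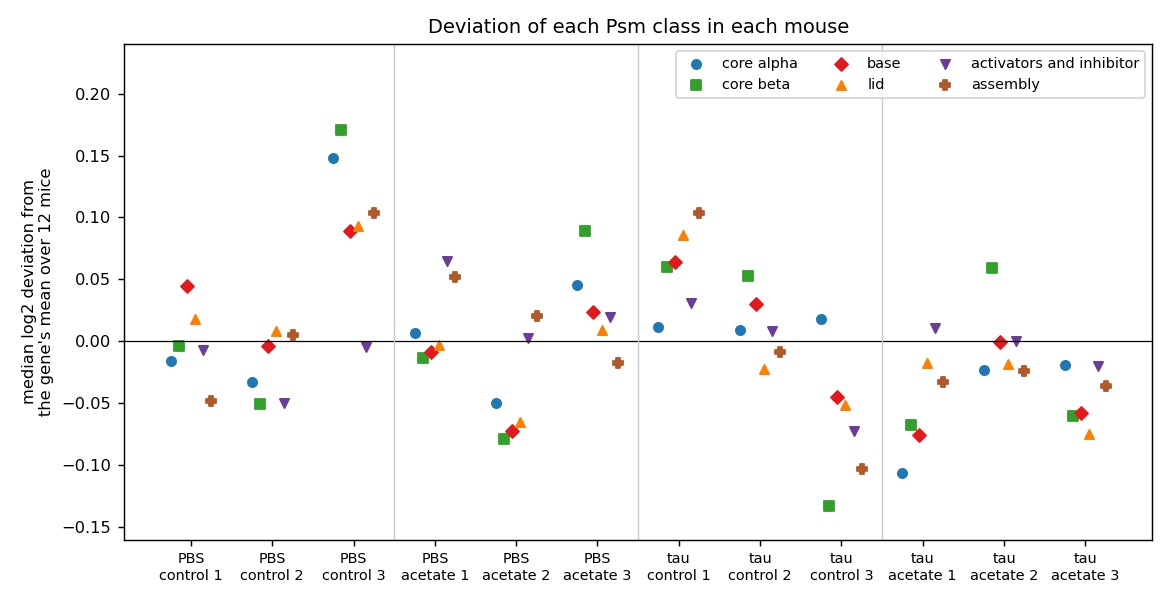
Median log2 deviation from each gene's own mean over the 12 mice, for 6 classes of Psm genes in each mouse (1 point per class). PBS control mouse 3 has the highest alpha and beta values (0.15 and 0.17), and tau control mouse 3 the lowest beta value (-0.13).

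No immune subunit or activator passed in any comparison. Of the immune subunits with Psme1 and Psme2, 4 of 5 were highest in 1 mouse, some of them narrowly. Psmb8 (chr17:34197721-34201454, plus strand) and Psmb9 (chr17:34181987-34187764, minus strand) lie beside each other in the MHC region. Psmb9 had 1.63, 1.16 and 1.49 CPM in PBS control mice and 1.68, 1.96 and 1.41 CPM in PBS acetate mice. In tau mice it had 1.37, 0.929 and 1.83 CPM on control diet and 3.52, 1.33 and 2.18 CPM on acetate. The groups overlapped, and the diet difference after tau was 0.80 ± 0.34 on the log2 scale (95% interval 0.08 to 1.52, adjusted p = 0.410). It was 0.37 without tau acetate mouse 1.

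Psmb8 had 6.29, 3.32 and 2.98 CPM in PBS control mice and 4.26, 3.56 and 5.05 CPM in PBS acetate mice. In tau mice it had 4.11, 3.98 and 5.88 CPM on control diet and 7.43, 3.45 and 4.37 CPM on acetate. All 4 groups overlapped, and the log2 fold change with acetate after tau was 0.15, or -0.24 without tau acetate mouse 1. Psmb10 had 17.8 to 23.0 CPM over the 12 mice and Psme1 had 19.2 to 26.6. No comparison of either passed. At the low levels of Psmb8 and Psmb9 the within-group coefficients of variation were 33.5 and 36.5%. Changes inside the wide intervals of these genes were not detectable with this spread and 3 mice per group.

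Tau acetate mouse 1 had the highest level of the 12 for Psmb8, Psmb9, Psmb10 and Psme2, and was not highest for Psme1. Its lead over the next mouse was narrow for Psmb10 (23.0 against 22.4 CPM) and Psme2 (7.19 against 7.03 CPM). The same mouse was highest for 8 of 9 genes of MHC class I processing and its inducers. This lead was narrow for B2m (83.95 against 83.09 CPM) and H2-D1 (13.3 against 12.3 CPM). The share of all genes highest in this mouse was not computed. The peptide transporter gene Tap1 had 9.81 CPM in it and 2.36 to 6.20 in the other 11 mice, and H2-K1, a class I heavy chain, had 42.9 against 24.7 to 30.8. Nlrc5, the class I transactivator, had 4.66 CPM against 0.474 to 1.45. The exception was the peptide trimmer Erap1, highest in PBS control mouse 1. Mice 2 and 3 of the tau acetate group lay within or below the range of the other groups for Tap1, H2-K1, Nlrc5 and Psmb10, while mouse 3 lay above it for Psmb9 (2.18 against up to 1.96 CPM) and, narrowly, for Tap2 (13.17 against up to 13.10 CPM). In this list of 9, no gene passed in any of the 5 comparisons, where 0.0136 to 8.84% of all genes did. Over these 9 the median log2 fold change reached 0.20 with acetate in tau mice and 0.18 with tau on acetate, and -0.09 with acetate in PBS mice. With acetate in PBS mice B2m, the class I light chain, passed and was lower when the compared mice alone were fitted. Its adjusted p was then 0.0914 with edgeR and 0.0879 with DESeq2.

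**Figure D5:**
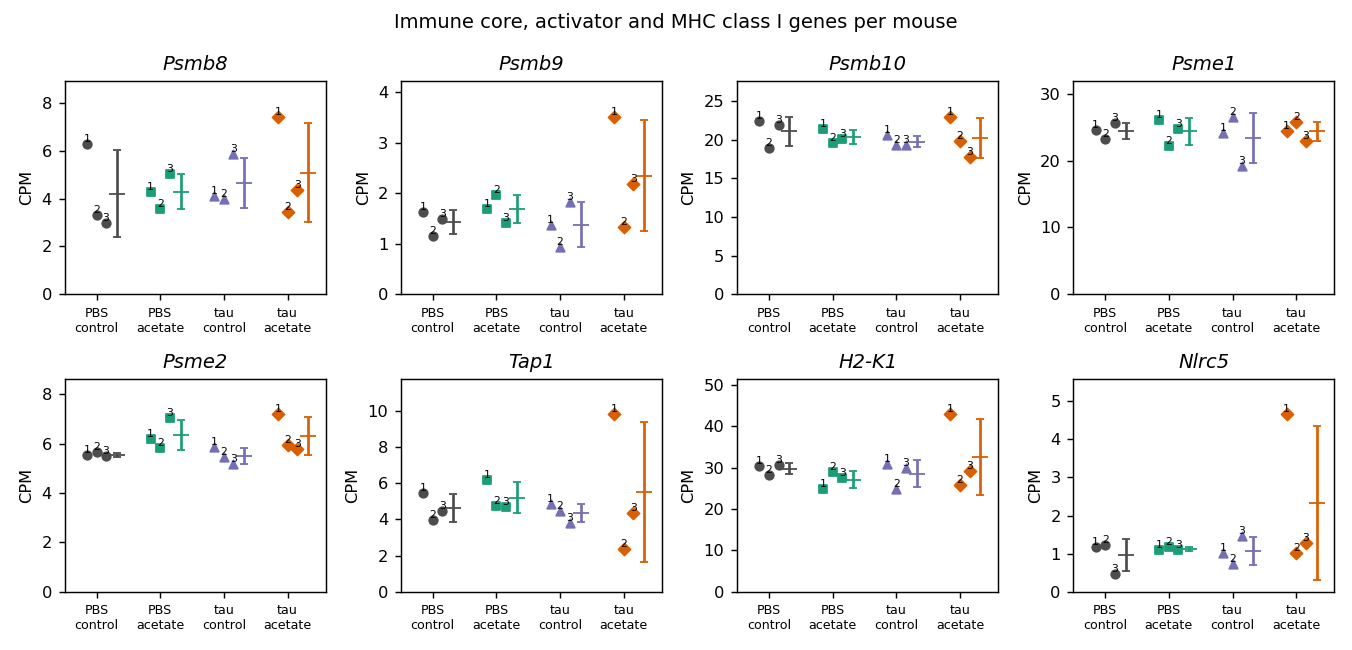
Normalized level (CPM, axis from 0) of 5 immune core and activator genes and of Tap1, H2-K1 and Nlrc5 in each mouse, with the replicate number beside each point and the group mean with SD (n = 3) at its right. Mouse 1 of the tau acetate group is the highest point in every panel except Psme1.

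Genes that act with the proteasome were read from 5 further lists. Of 13 assembly and control genes outside the Psm symbols, 12 were tested and 1 passed (8.84% of all genes did in the same comparison): Ube3c, a ubiquitin ligase bound to the proteasome, fell with acetate in PBS mice (log2 fold change -0.18 ± 0.052, adjusted p = 0.0541). Its levels were 128, 121 and 133 CPM on control diet and 112, 110 and 115 CPM on acetate, with no overlap. The median of the 12 in that comparison was -0.08, beside 0.0042 for all genes. Usp14, the deubiquitinase that trims ubiquitin chains on the regulatory particle, came nearest to the threshold among all these genes in tau mice. It had 166, 173 and 158 CPM on control diet and 139, 136 and 131 CPM on acetate, without overlap. The log2 fold change was -0.29 ± 0.059 (95% interval -0.42 to -0.17), the unadjusted p was 7.94e-05 and the adjusted p of 0.100036 did not pass. It passed in 4 of the 10 other settings tried, including DESeq2 on all 12 mice. Of the 12 fits that left out 1 mouse it passed in 3, those without PBS control mouse 1 or 2 or PBS acetate mouse 3. It did not pass in any fit that left out a tau mouse. The interaction for Usp14 was -0.17 (adjusted p = 0.391).

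Nfe2l1, the factor that raises proteasome genes, was even at 313 to 345 CPM, and no comparison of it passed. Among the 9 genes of transcriptional control 1 passed, in the interaction alone, where 1.56% of all genes did. It was Maff, a small partner of such factors (log2 value 2.17 ± 0.58, adjusted p = 0.0947). Maff lay at 0.361 to 1.73 CPM, and the call was lost in 10 of 12 fits that left out 1 mouse. Mafk, a paralog of Maff, lay at the threshold with acetate in PBS mice (log2 fold change 0.37, adjusted p = 0.100302). It passed without the low-count filter (adjusted p = 0.0845), with PBS mice paired by number (0.0985) and in 4 of 12 fits that left out 1 mouse (lowest 0.0265, without PBS acetate mouse 3), and not when the length and GC trend was removed from the paired fit. Of 8 detoxification genes under the related factor NFE2L2, 1 passed with acetate in PBS mice, beside 8.84% of all genes. Srxn1 (sulfiredoxin) fell from 85.1, 80.1 and 84.0 CPM to 64.6, 66.0 and 74.0 CPM. Its groups did not overlap (log2 fold change -0.28 ± 0.066, adjusted p = 0.0278). None of the 11 shuttle and segregase genes, which bring ubiquitinated proteins to the proteasome, passed in any comparison. The 6 ubiquitin and ubiquitin-activating genes gave no call either, where at most 8.84% of all genes passed. The medians of these lists with acetate in PBS mice were -0.07 and 0.04 on the log2 scale.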

How the data were processed

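RNA-seq was performed on dorsal hippocampus of 12 mice (3 per group). The authors made polyA libraries, aligned reads to GRCm38 with STAR and counted them per gene with HTSeq 0.9.1 on the reverse strand, and deposited raw counts for each library. STAR kept reads with up to 20 alignments. The annotation release and how HTSeq treated such reads are not given in the sources used here.

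From these counts, genes were filtered with filterByExpr (minimum count 10, minimum total 15), scaled by TMM, and tested with edgeR 4.0.16 (R 4.3.3, robust quasi-likelihood F test, 1 mean per group over all 12 mice, residual df 8). Benjamini-Hochberg adjustment ran over 14742 genes, with calls below 0.1. Standard errors are the log2 fold change over the square root of F, and 95% intervals are per gene and not adjusted. CPM used TMM-scaled library sizes, and exon lengths came from GENCODE M21, matched by symbol for 24534 of 24985 genes. Scripts were tested on simulated data. The depth of 12983233 to 20218340 counts per library limits precision mainly for genes of a few CPM. Nothing states whether mice shared a litter or cage, so p-values measure the spread between these 12 mice.

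Named genes were, in each comparison, every member called or the 3 with the smallest p, the member of each class with the largest fold change, a fixed set of catalytic, lid, activator and inhibitor genes, and the highest and lowest level of each class, and from other lists those called or with the largest change. Psmd2, Psmc2, Psmd9, Psme4, Psmg2, Psma4, Nfe2l1, Mafk and the MHC genes were named after their values were seen. Members and lists were chosen with earlier results of these data known. An item of the MHC list is not reported here. Alternatives were DESeq2 1.42.0, other size factors, no filter, the compared mice alone, a 0.05 threshold, thinning, a length and GC trend, a replicate block and leaving out each mouse. Replicate numbers were checked for pairing by correlating deviations from group means: between the PBS groups the 3 pairs gave 0.316, 0.422 and 0.535, so a block among PBS mice was added after seeing the data, whereas same-numbered pairs over all groups ranged from -0.33 to 0.535.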

Additional observations from a re-analysis of the deposited data

How the results depend on the processing

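No member was called in 4 of the 5 comparisons under any alternative run. The 1 call with acetate in PBS mice became 0 without the low-count filter, with DESeq2 on all 12 mice or on the compared mice alone, with edgeR on the compared mice alone, at 0.05, after thinning, and with the length and GC trend removed, alone or with either replicate block (adjusted p of Psmd5 from 0.0414 to 0.334 over all fits). It was 0 to 1 when each mouse was left out, lost without any of the 3 PBS control mice, PBS acetate mice 1 and 2, tau control mouse 1, or any tau acetate mouse. The cause was not tested. With the replicate block over all mice the count was 1 (adjusted p = 0.0964), and pairing by number among PBS mice also gave 1, while the blocks changed no other call among the members. Over all genes the block gave 9, 1224, 10, 25 and 349 calls in the 5 comparisons, in place of 2, 1303, 9, 20 and 230. The median level per length over members moved to 34.75 CPM per kb with the longest transcript.

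Estimates near 0 changed sign. Psmc3ip with acetate in PBS mice was -0.0009625 with the replicate block and -0.05644 after thinning. With tau on acetate it was -0.009997 with the length and GC trend removed and -0.007995 with the block added. The Psmb5 interaction was -0.006113 and -0.008821 in those fits. Leaving out each mouse, log2 fold changes with tau on control diet ran from -0.07495 to 0.5574 (Psmb8), -0.01896 to 0.2075 (Psme2b), -0.2613 to 0.02161 (Psma5), -0.1374 to 0.01022 (Psmb7) and -0.2619 to 0.002425 (Psmg3). For Psmc3ip they ran from -0.213 to 0.1609 with acetate in PBS mice, -0.3934 to 0.01351 with acetate in tau mice and -0.1502 to 0.257 with tau on acetate. For Psmb5 they ran from -0.1653 to 0.009422 with acetate in tau mice and -0.05094 to 0.1797 in the interaction, and for Psmg1 with tau on acetate from -0.2663 to 0.01582. None of these was called in any fit.

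With 3 mice per group an exact permutation test of a single gene cannot go below a p of 0.1, so calls rest on the spread shared across genes. Ube3c passed in 8 of 12 other settings and Srxn1 in all 12, and in 8 and 10 of the 12 fits without 1 mouse. Ube3c was lost without PBS control mouse 1 or 3 or PBS acetate mouse 1 or 2, and Srxn1 without PBS acetate mouse 1 or 2. Maff passed in those fits only without PBS acetate mouse 1 or tau acetate mouse 3.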
